A study of Mus musculus with 12 samples.

Results

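The circadian clock genes described here were Arntl, Npas2, Clock, Dbp, Tef, Per1, Per2, Per3, Nr1d1 and Nr1d2, and their values come from the probes that carry one of these gene names in the array files. All 10 genes were on the array, with 19 probes of 41174, among 27373 gene names. The mice were male C57BL/6 mice (strain C57BL/6J in the labels), 8 weeks old when purchased and kept under a 12 h light and 12 h dark cycle. After shaving, their backs received 200 µL daily of 10% N-CE (a cell extract of the cactus Notocactus ottonis), 3% MXD (minoxidil, an approved hair growth drug) or the vehicle VC, a mixture of propylene glycol, ethanol and water. Whole back skin was taken after 1 week (1W), 2 weeks (2W) and 3 weeks (3W). The RNA of 6 mice made 1 pool per group. Each treated pool was co-hybridized with VC of the same week on a pair of arrays, once in Cy5 and once in Cy3. Within a week MXD and N-CE were set against 1 VC pool, the 4 arrays of a week lay on 1 slide, and week and slide cannot be told apart. The hour of the day at which skin was taken was not given in the sources used here. A difference in hour between pools therefore cannot be told apart from a difference by treatment.

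The molecular clock is a loop of transcription and repression that runs in most cells of the body, skin included. The proteins of Arntl (BMAL1) and of Clock or its relative Npas2 pair up, bind E-box sequences and switch on the Per and Cry genes, Nr1d1 and Nr1d2, and the output genes Dbp and Tef. PER and CRY proteins then repress that pair, REV-ERBα (Nr1d1) and REV-ERBβ (Nr1d2) repress Arntl, and DBP and TEF act through D-box sequences. In skin the clock is known from keratinocytes and hair follicles, and Arntl and Clock have been linked to the timing of the hair cycle.

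Fold values are given as the log2 ratio of treated over VC, with an SD from the array pair, which measures the hybridization and not the mice. A gene stands for its probe with the highest mean signal and was called when the scanner software's P was under 0.01 on both arrays in 1 direction and the mean fold was above 1.5 or below 0.75. Levels are given as the processed signal divided by the 75th percentile of its channel and are compared for the same probe only. The arrays of a dye swap correlated across well measured genes with r between 0.31 and 0.74 in 5 comparisons, whereas r was −0.16 in N-CE 2W, which limits what that comparison can show. The brightest probes of 8 members were well above background in all 24 channel readings. Per3 was so in 22 readings and Npas2 in only 2, so Npas2 has no usable fold.

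In MXD 2W, 4 of the 10 members were called down-regulated, more than in any other comparison. They were Dbp, Tef, Nr1d1 and Nr1d2. These are the output and REV-ERB genes, targets of the CLOCK and BMAL1 pair. Their mean folds lay between 0.391 and 0.510 of VC. The Per and Cry genes, also targets of that pair, were not called in MXD 2W. Over all gene names, measured or not, 6.87% were called down-regulated and 4.26% up-regulated in this comparison. Of the 17130 measured genes, 1880 were called down-regulated and 1165 up-regulated, and 9 of the 10 members were measured. No member was called up-regulated, and Arntl and Per1 were not called. In MXD 1W, 1 of 10 members, Per1, was called down-regulated, where the share over all genes was 0.855% for lower and 0.848% for higher genes. Of the 17261 genes measured there, 234 were called down-regulated and 231 up-regulated. No member was called in MXD 3W (0.183% lower and 0.187% higher over all genes), N-CE 1W (1.85% and 0.362%), N-CE 2W (0.0513% and 0.0806%) or N-CE 3W (0.147% and 0.143%).

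**Figure D1:**
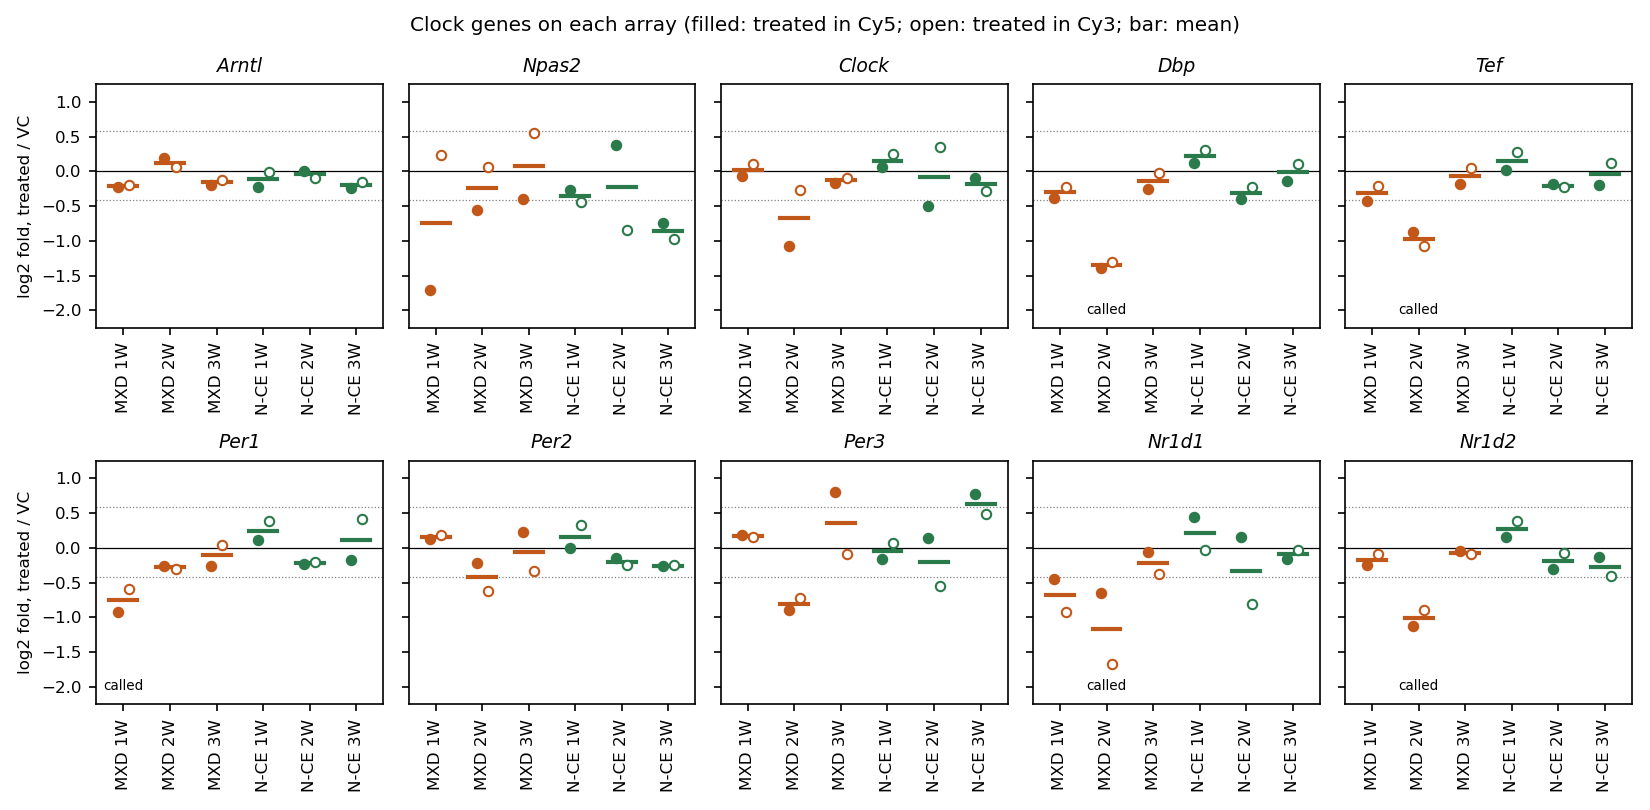
Log2 fold of treated over VC for the 10 clock genes in the 6 comparisons, with filled points for the array with the treated pool in Cy5, open points for Cy3, bars for the mean and dotted lines at the fold limits. Dbp, Tef, Nr1d1 and Nr1d2 lie below the lower limit on both arrays of MXD 2W and Per1 on both arrays of MXD 1W. Per3 in MXD 2W, Nr1d1 in MXD 1W and Npas2 in N-CE 3W also do and were not called, and Npas2 was mostly not above background.

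The DNA just before the start of these genes is shown because 4 of them were called together in 1 comparison. The 250 bases before the RefSeq start sites (GRCm38.p6) were searched on both strands for the E-box CACGTG, the related E′-box CACGTT, the D-box TTATGTAA or TTACGTAA, the core AGGTCA of REV-ERB sites, and the CRE TGACGTCA, none of which contains another. Promoters of 9 member genes, with 14 start sites, matched by symbol, and Per2 had no entry. Capitals mark a motif, the sequences run 5′ to 3′ on the gene's strand, and Tef is shown at the downstream and Per1 at the upstream of their start sites.
Dbp, chr7:45704997-45705246 (+): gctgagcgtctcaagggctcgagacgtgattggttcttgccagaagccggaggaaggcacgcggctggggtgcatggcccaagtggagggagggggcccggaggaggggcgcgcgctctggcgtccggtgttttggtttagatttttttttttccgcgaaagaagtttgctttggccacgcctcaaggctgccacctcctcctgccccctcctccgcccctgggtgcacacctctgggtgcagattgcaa
Tef, chr15:81811164-81811413 (+): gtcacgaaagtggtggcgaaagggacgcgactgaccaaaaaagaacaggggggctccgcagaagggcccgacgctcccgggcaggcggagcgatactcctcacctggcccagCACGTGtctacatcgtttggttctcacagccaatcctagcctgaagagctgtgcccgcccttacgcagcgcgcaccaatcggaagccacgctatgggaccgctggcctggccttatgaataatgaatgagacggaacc
Nr1d1, chr11:98775378-98775627 (-): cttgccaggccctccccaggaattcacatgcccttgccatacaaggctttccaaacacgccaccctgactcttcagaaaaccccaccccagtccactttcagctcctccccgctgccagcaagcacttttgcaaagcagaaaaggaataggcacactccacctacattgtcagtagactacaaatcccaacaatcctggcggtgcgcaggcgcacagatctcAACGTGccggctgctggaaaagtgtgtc
Nr1d2, chr14:18239107-18239356 (-): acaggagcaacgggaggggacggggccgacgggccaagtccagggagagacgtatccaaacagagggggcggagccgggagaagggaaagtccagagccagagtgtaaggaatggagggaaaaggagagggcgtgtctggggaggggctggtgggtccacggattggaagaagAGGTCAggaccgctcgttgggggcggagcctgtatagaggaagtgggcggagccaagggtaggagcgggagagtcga
Per1, chr11:69098699-69098948 (+): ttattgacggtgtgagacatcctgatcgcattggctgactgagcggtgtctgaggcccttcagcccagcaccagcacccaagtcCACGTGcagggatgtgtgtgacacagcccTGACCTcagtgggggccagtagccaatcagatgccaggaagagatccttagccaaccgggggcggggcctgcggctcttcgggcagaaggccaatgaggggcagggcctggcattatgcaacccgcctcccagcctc
Per3, chr4:151044666-151044915 (-): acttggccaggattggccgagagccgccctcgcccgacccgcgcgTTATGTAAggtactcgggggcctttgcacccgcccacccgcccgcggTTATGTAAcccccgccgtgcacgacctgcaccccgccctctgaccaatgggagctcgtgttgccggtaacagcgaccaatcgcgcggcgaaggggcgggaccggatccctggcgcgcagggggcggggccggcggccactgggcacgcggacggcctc
The upstream sequences of Tef and Per1 hold an E-box, 133 and 161 bases before the start, and the other Tef start site has one at 122 bases. The other Per1 start site has none of the motifs. An E-box is in 6.02% of all 32851 promoters of this length. Nr1d1 holds an E′-box 23 bases before its start, a motif of 3.85% of promoters. Nr1d2 holds AGGTCA at 72 bases, Clock at 114 bases and Per1 at 132 bases, a motif of 14% of promoters. Of the 3 Clock start sites only 1 has it. Per3 holds a pair of D-boxes, at 198 and 151 bases, and 0.931% of promoters hold any. Dbp holds none of these letters in the window, nor do Arntl and Npas2. No member promoter held the CRE, which 1.55% of promoters hold. A match is a run of letters and was not tested as a site.

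Dbp and Tef encode PAR bZIP transcription factors, the clock's output arm. For Dbp (probe on mm9 chr7:52965265-52965324), the VC level at 2W was 32.4 and 29.3 on the MXD arrays and 29.5 and 21.2 on the N-CE arrays. The MXD 2W readings were 12.3 and 11.7, and those of N-CE 2W were 22.4 and 18.2. All MXD readings thus lay below every VC and N-CE reading of the week, while N-CE and VC overlapped. The log2 fold in MXD 2W was −1.40 and −1.31 on the 2 arrays, mean −1.35 ± 0.06 (SD, n = 2), or 0.391 of VC. The VC pool itself read 0.30 higher on the log2 scale on the MXD arrays than on the N-CE arrays of that week. Against the VC readings of the N-CE arrays the Dbp fold was −1.06. In the other comparisons the log2 fold of Dbp ran from −0.31 ± 0.12 (N-CE 2W) to 0.22 ± 0.13 (N-CE 1W).

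Tef had VC levels of 11.9 and 13.3 on the MXD arrays of 2W and 10.2 and 9.45 on the N-CE arrays (probe on mm9 chr15:81656928-81656987). MXD 2W read 6.53 and 6.24 and N-CE 2W read 9.04 and 8.03. Both MXD readings were below all others of the week, and both N-CE readings were below all 4 VC readings. The Tef log2 fold in MXD 2W was −0.97 ± 0.15 (SD, n = 2). As for Dbp, the VC pool read higher on the MXD arrays, by 0.36, and against the VC readings of the N-CE arrays the Tef fold was −0.62. A second Tef probe was called as well, at −0.90 ± 0.11, although it shrank to −0.31 with the normexp background correction. A probe nearer the start of the gene gave −0.24 and −0.94 and was not called, and the last of the 4 Tef probes was not well above background. In the other comparisons the Tef fold lay between −0.31 and 0.15.

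Nr1d1 and Nr1d2 encode the heme-binding nuclear receptors that repress Arntl. Nr1d2 (mm9 chr14:19037253-19037312) had VC levels at 2W of 4.79, 4.25, 4.88 and 3.72. The MXD 2W readings were 2.21 and 2.27 and the N-CE 2W readings 3.93 and 3.54. MXD was apart from all other readings of that week. The Nr1d2 log2 fold in MXD 2W was −1.12 and −0.89 on the arrays, mean −1.0 ± 0.16 (SD, n = 2), or 0.499 of VC.

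Nr1d1 depended on the dye orientation and on the probe. Its brightest probe spans mm9 chr11:98630526-98631028 and thus an intron, as the probe is shorter than that interval. VC read 1.87 and 3.09 on the MXD arrays of 2W and 1.96 and 3.16 on the N-CE arrays, with the higher reading in Cy5 on each pair. MXD 2W read 1.19 in Cy5 and 0.956 in Cy3, and N-CE 2W read 2.17 and 1.80. The MXD readings were below all VC readings of the week, and the N-CE readings lay within the VC range or just below it. The log2 fold was −0.65 with MXD in Cy5 and −1.68 with MXD in Cy3, mean −1.17 ± 0.72 (SD, n = 2). In 5 of the 6 comparisons the fold of this probe was higher when the treated pool was in Cy5, by a median of 0.47 over all 6. The other Nr1d1 probes were also higher with the treated pool in Cy5 in all 6 comparisons. In MXD 2W they gave −0.50 ± 0.69 and −0.23 ± 0.21 and were not called. In MXD 1W the brightest probe gave −0.44 and −0.92, with P of 0.0334 and 3.23e-05, and was not called.

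**Figure D2:**
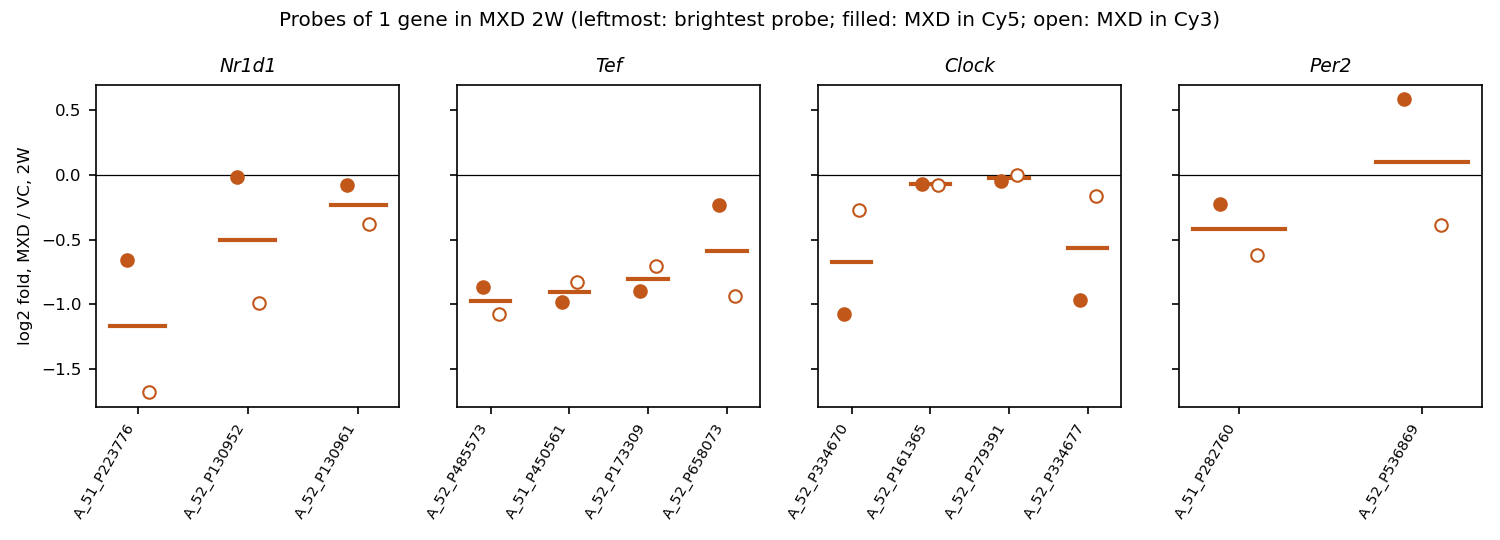
Log2 fold in MXD 2W for each probe of the members with several probes, with the brightest probe leftmost, filled points for MXD in Cy5, open points for Cy3 and bars for the mean. The 3 Nr1d1 probes range from −1.17 to −0.23 and all 4 Tef probes are below 0, while the 2 Clock probes at the same end of the gene differ from the other 2.

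The PER proteins are the repressors that close the loop, and Per1 is also known as a gene that responds within hours to light, stress hormones and other signals. Per1 (mm9 chr11:68922878-68922937) had VC levels at 1W of 1.82, 1.81, 2.14 and 1.78. MXD 1W read 0.956 and 1.20, below every VC reading. N-CE 1W read 2.31 on both arrays, above every VC reading. The Per1 log2 fold in MXD 1W was −0.93 and −0.59, mean −0.76 ± 0.24 (SD, n = 2), or 0.592 of VC, and that in N-CE 1W was 0.25 ± 0.19, which was not called. At 2W the VC level of Per1 was 0.960 to 1.23 and at 3W it was 0.828 to 1.29, so the VC pool of 1W read highest. The MXD folds at these weeks were −0.28 ± 0.03 and −0.11 ± 0.21. In MXD 1W, where Per1 was called, Dbp was at −0.30 ± 0.11 and Tef at −0.31 ± 0.15 and neither was called.

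Per3 (mm9 chr4:150379256-150379315) had a log2 fold of −0.81 ± 0.11 (SD, n = 2) in MXD 2W, and its P was 0.00234 on one array and 0.0141 on the other, so it missed the call by 1 P-value. Its MXD readings of 0.0375 and 0.0454 lay below the 4 VC readings of 0.0556 to 0.0855. The signal was dim, and with the normexp background correction the fold was −0.24. In N-CE 3W the Per3 fold was 0.64 ± 0.21, not called, with VC well above background on 1 of 2 arrays. Per2 was dim as well. Its log2 fold was −0.42 ± 0.28 in MXD 2W, or −0.21 with the normexp background correction, elsewhere it ranged from −0.25 to 0.16, and it was not called in any of them. Its other probe, well above background in 8 of 24 readings, gave folds of opposite sign on the 2 arrays of MXD 2W.

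The activator genes were not called in any comparison. Arntl (mm9 chr7:120456978-120457037) had VC levels at 2W between 0.673 and 0.794, MXD readings of 0.794 and 0.764, and N-CE readings of 0.675 and 0.745. The groups overlapped. Its log2 fold was 0.13 ± 0.09 in MXD 2W, elsewhere it ranged from −0.21 to −0.04, and the largest SD of a comparison was 0.15. The VC level of Arntl was 0.756 to 0.861 at 1W and 0.970 to 1.08 at 3W, the latter above all readings of the other weeks. The Clock fold in MXD 2W was −1.07 with MXD in Cy5 and −0.27 with MXD in Cy3, mean −0.67 ± 0.57 (SD, n = 2), and the probe next to it read −0.97 and −0.16. The Clock probes farther from it, at mm9 chr5:76664578-76664637 and chr5:76683410-76683469, gave −0.03 ± 0.03 and −0.07 ± 0.01. The MXD readings of the brightest Clock probe, 0.644 and 0.75, were below the 4 VC readings of 0.914 to 1.52.

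**Figure D3:**
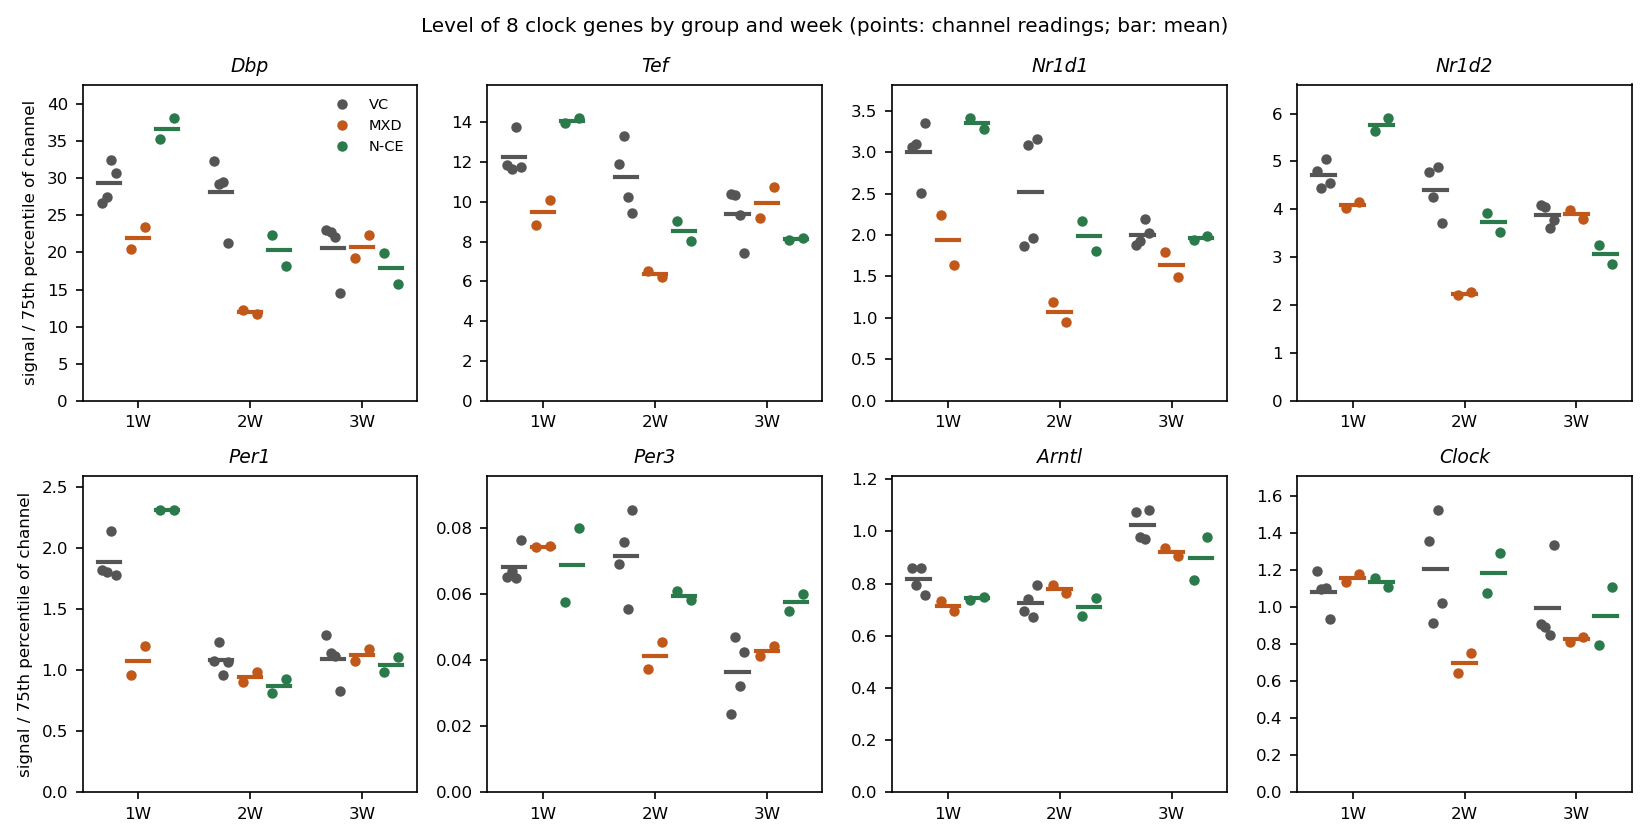
Level of 8 clock genes (processed signal over the 75th percentile of its channel) by week, with 4 readings of the VC pool and 2 of each treated pool as points and means as bars. At 2W the MXD readings of Dbp, Tef, Nr1d1, Nr1d2, Per3 and Clock lie below every VC reading of that week, and those of Per1 and Arntl overlap VC.

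Ordered by mean level over the 9 groups, Dbp, Tef, Nr1d1 and Nr1d2 shared both ends. N-CE 1W was highest, at 36.7 ± 1.9 for Dbp, and MXD 2W was lowest, at 12.0 ± 0.4 (SD over 2 readings each). The lowest group did not overlap with its neighbour for any of these 4 genes. The highest group, N-CE 1W, was apart from VC 1W for Dbp, Tef, Nr1d2 and Per1 and overlapped with it for Nr1d1. Between these ends most neighbours overlapped, so that 6 of the 8 neighbouring pairs did so for Dbp and for Tef, 7 for Nr1d1 and 4 for Nr1d2. Weeks lay on separate slides, and the VC level of Dbp itself went from 29.3 ± 2.7 at 1W to 20.6 ± 4.1 at 3W (SD over 4 readings of 1 pool).

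With the 3 weeks of a treatment taken as replicates, limma (adjusted over all probes by Benjamini-Hochberg) called none of the members for MXD, N-CE or MXD minus N-CE. It called 0% of all probes, with 3098, 1490 and 2021 probes at an unadjusted p under 0.05. In MXD the lowest adjusted p of a member was 0.626, for Nr1d1 at −0.69 ± 0.23 (SE over the weeks) and Per1 at −0.38 ± 0.17. In MXD minus N-CE the lowest was 0.75, shared by Nr1d1 (−0.62 ± 0.21), Dbp, Tef and Per1. Dbp was lower in MXD than in N-CE by a mean of −0.57 ± 0.22, with an adjusted p of 0.75. Nr1d1 and Dbp were below 0 in MXD at all 3 weeks, and in N-CE at 2 of 3.

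Other clock genes were described through a list of 22 genes in 3 groups, of which 19 were measured in MXD 2W. There 4 were called down-regulated and 3 up-regulated, against 1880 and 1165 of all 17130 measured genes. The list's median log2 fold was −0.21, against −0.81 for the 9 measured members and 0.02 for all measured genes. With the normexp background correction all 7 kept their sign, the median of the members was −0.66 and that of the list −0.10. Among the genes of the loop, Hlf, the third PAR bZIP factor, was called at −1.21 ± 0.15 (SD, n = 2), beside Dbp and Tef. Nfil3, a repressor that competes with the PAR bZIP factors at the D-box, was called in the opposite direction, at 1.15 and 0.92, mean 1.03 ± 0.16. Rora, a nuclear receptor that activates Arntl at the sites where REV-ERBs repress it, was called at −0.69 ± 0.03. Cry1 (0.63 ± 0.19), Cry2 (−0.64 ± 0.32) and Ciart (−0.65 ± 0.48) were not called. Arntl2, a relative of Arntl, read −0.74 and −1.86, mean −1.30 ± 0.79, and was not called, and with the normexp background correction its mean was −0.18. Among the other outputs Klf9 (−0.83 ± 0.15) and Nampt, the enzyme of NAD salvage (−0.65 ± 0.13), were called down-regulated. Noct (nocturnin), a rhythmic gene, was called up-regulated at 0.78 ± 0.26. Of the turnover genes Timeless, which also serves DNA replication, was called at 1.21 ± 0.18, while the kinases Csnk1d and Csnk1e were not called.

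**Figure D4:**
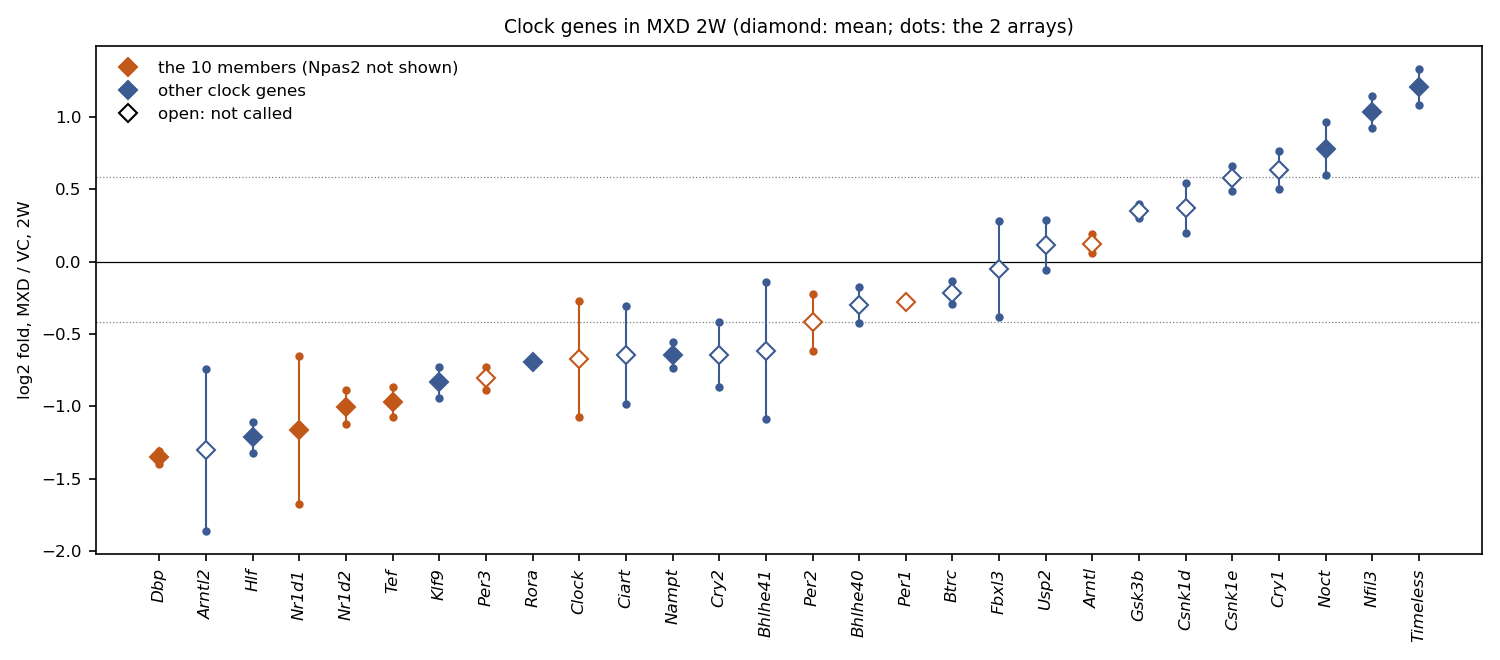
Log2 fold in MXD 2W of the 9 measured members and the 19 measured other clock genes, ordered by mean, with a diamond for the mean (filled where called), dots for the 2 arrays and dotted lines at the fold limits. Dbp lies lowest, followed by Arntl2 with its 2 arrays far apart, the PAR bZIP and REV-ERB genes lie at the lower end with Hlf, and Nfil3 and Timeless at the upper end.

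In the remaining comparisons 2 genes of that list were called, both in N-CE 1W. Nfil3 was down-regulated there, at −0.80 ± 0.21 (SD, n = 2), and Timeless at −1.06 ± 0.48. Of all 17010 genes measured in N-CE 1W, 507 were called down-regulated and 99 up-regulated. The PAR bZIP genes read 0.22 ± 0.13 (Dbp), 0.15 ± 0.18 (Tef) and 0.43 ± 0.05 (Hlf) in N-CE 1W and were not called. No gene of the list was called in MXD 1W, MXD 3W, N-CE 2W or N-CE 3W, where the list's medians were −0.07, 0.0036, −0.14 and −0.02.

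Per1 is also a target of stress and growth signals, so genes of such signals were counted too. Of 8 immediate early genes, 2 were called up-regulated in MXD 2W (Egr1 and Junb) and 1 down-regulated (Nr4a1). In N-CE, Fos and Fosb were called up-regulated at 1W and at 2W, with Fos at 1.66 ± 0.04 in N-CE 2W and Per1 at −0.22 ± 0.02 there. No immediate early gene was called in MXD 1W, where Per1 was. Of 5 glucocorticoid-responsive genes on the array, none was called in MXD 1W. Mt2 was called up-regulated and Tsc22d3 down-regulated in MXD 2W, Mt2 was down-regulated in N-CE 1W, and none was called elsewhere. Of all 17130 genes measured in MXD 2W, 1165 were called up-regulated and 1880 down-regulated. These counts were 99 and 507 of 17010 in N-CE 1W, and 22 and 14 of 17192 in N-CE 2W. Over all genes, 0.855% were called down-regulated and 0.848% up-regulated in MXD 1W, so a list this short without a called gene says little by itself. The part of such signals in the Per1 value was not tested.

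Markers of several skin cell types moved in the same comparisons as the clock genes. The arrays measured whole skin, so fewer cells of a type and less RNA per cell cannot be told apart. In MXD 2W all 7 skeletal muscle genes were called down-regulated, with a median of −1.44, and their summed level was 123 to 197 against 353 to 421 in VC. All 7 hair shaft genes were called up-regulated, with a median of 1.33 and a summed level of 665 to 713 against 230 to 373. All 5 melanocyte genes were called up-regulated, with a median of 1.27 and a summed level of 65.4 to 68.4 against 27.1 to 31.8. Of 5 keratinocyte genes 3 were called down-regulated, with a median of −1.17 and a summed level of 279 to 355 against 279 to 529. Of 4 fibroblast genes 1 was called down-regulated, with a median of −0.70 and a summed level of 168 to 218 against 294 to 334. Of 5 adipocyte genes 3 were called down-regulated, with a median of −0.57 and a summed level of 111 to 116 against 145 to 174. Of 5 neutrophil genes 1 was called up-regulated there, with a summed level of 5.92 to 6.14 against 4.46 to 6.16. The part of these cell types in the fall of Dbp, Tef, Nr1d1 and Nr1d2 was not tested.

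In MXD 1W, where Per1 was called, 6 of 7 muscle genes were called down-regulated (summed level 256 to 272 against 406 to 446), 4 of 7 hair shaft genes up-regulated (177 to 193 against 110 to 125), 3 of 5 melanocyte genes up-regulated (34.1 to 35.0 against 20.2 to 22.8) and 3 of 5 neutrophil genes up-regulated (16.5 to 23.1 against 2.93 to 3.74). No adipocyte gene was called at 1W, with a summed level of 119 to 124 in MXD and 182 to 193 in N-CE against 158 to 163 in VC. The part of these cell types in the Per1 value was not tested. In N-CE 1W all 7 hair shaft genes were called down-regulated, with a median of −2.40 and a summed level of 19.4 to 24.2 against 110 to 125, as were 4 of 5 melanocyte genes, while 7 of 9 measured members were above 0 with none called. Of the neutrophil genes 1 was called up-regulated there, with a summed level of 6.06 to 6.64 against 2.93 to 3.74, and muscle genes were not called. In MXD 3W, 1 muscle gene was called down-regulated and 4 melanocyte genes up-regulated. In N-CE 2W 1 adipocyte gene was called down-regulated, and in N-CE 3W 1 melanocyte gene up-regulated. Of the marker genes, Ngp of the neutrophil list was not well above background in any reading, and all 7 muscle and 5 adipocyte genes were above it in every reading, as were 6 of 7 hair shaft, 4 of 5 melanocyte, 3 of 5 neutrophil, 2 of 5 keratinocyte and 2 of 4 fibroblast genes.

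**Figure D5:**
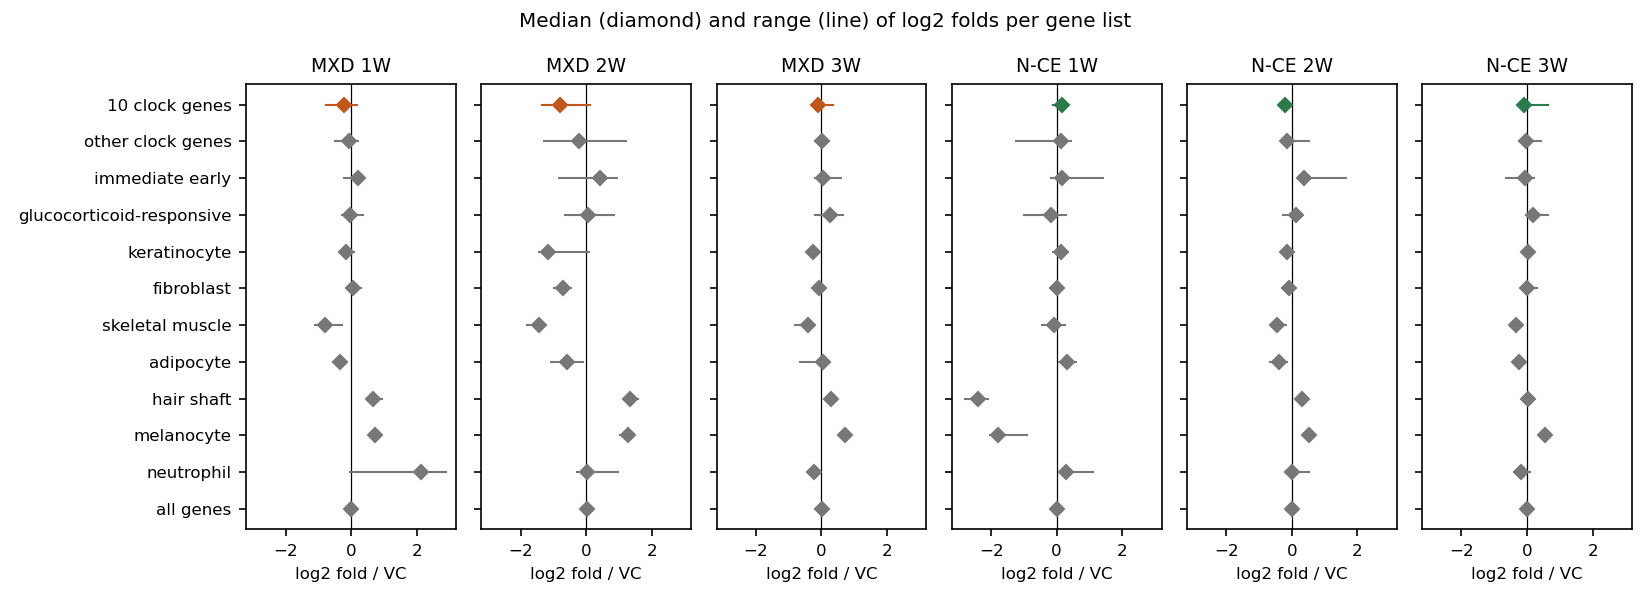
Median (diamond) and range (line) of log2 folds of treated over VC for the measured clock genes of the 10 and for 10 other gene lists, with the median of all measured genes in the last line, for the 6 comparisons. The median of the clock genes is lowest in MXD 2W, at −0.81, where muscle, keratinocyte, fibroblast and adipocyte genes are also low and hair shaft and melanocyte genes high.

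The genes closest to Dbp over the log2 folds of all 12 arrays, among 14613 genes well above background in every reading, were Limch1, Tgfbi, Lce1m, Galnt15 and Pla2g5. Their root mean square difference from Dbp was 0.11 to 0.12, against a median of 0.63. Each lay between −1.46 and −1.25 in MXD 2W, like Dbp. Of the members, Tef differed from Dbp by 0.19 and Nr1d2 by 0.23, and 63 and 192 of these genes were closer. Nr1d1, also called in MXD 2W, differed from Dbp by 0.43, and 2366 genes were closer. Clock differed by 0.40 and Per1 and Per2 by 0.49, with 1874, 3465 and 3428 genes closer. The 5 genes closest to Arntl were Vcl, Rbm33, Tax1bp1, Pik3cb and Brox, with differences of 0.06 to 0.09 against a median of 0.30. Arntl and Dbp differed from each other by 0.64.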

How the data were processed

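RNA of whole back skin, pooled from 6 mice per group, was measured on 12 two-colour Agilent arrays, which form 6 comparisons with a dye swap each. The authors deposited Feature Extraction output (version 12.0.3.1 per the file headers, 11.0.1.1 per the labels) and a matrix of log10 ratios. The deposited log10 ratio of Cy5 over Cy3 was computed by the authors from signals with the background subtracted and the dyes normalized by LOWESS. The p-value of each spot was deposited by the authors from the software's error model and describes the spot. The authors also deposited a processed intensity per channel, after the same steps. Probe positions and gene names are those of the files, on mm9.

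Control and outlier spots were left out, ratios were turned to treated over VC on a log2 scale, and spots of a probe were averaged, with Python 3.11.15, numpy 2.4.6 and pandas 2.3.3. A gene counted as measured where its probe was well above background in 1 group on both arrays. Background shares were computed over all gene names with a value. R 4.3.3 with limma 3.58.1 gave the fits over the weeks and the normexp (offset 50) and loess alternative. Scripts were tested on simulated data. There are 12 arrays and 1 pool per group, which limits the precision, and no test across mice is possible within a week. The alternatives were the background correction, the mean over all probes, each array alone, the matrix values, the fold without P, symmetric fold limits, a filter on dim probes and each week left out. The 10 genes and the lists (loop, turnover and output genes of the clock, immediate early, glucocorticoid-responsive, keratinocyte, fibroblast, skeletal muscle, hair shaft, adipocyte, neutrophil and melanocyte genes) were chosen with earlier results of these data known. All 10 members, the genes of the clock, immediate early and glucocorticoid lists that were called in a comparison, and the 5 genes closest to Dbp and to Arntl were named. One gene of the clock lists is not reported here. Zbtb16, on the glucocorticoid list, was not matched by name. Promoter sequences are from RefSeq on GRCm38.p6, whose coordinates are not on the array's build.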

Additional observations from a re-analysis of the deposited data

Results flagged for a closer look

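Several members lay on opposite sides of VC at different weeks of a treatment, on both arrays of each week. None of these differences between weeks was tested, and each week lay on its own slide. In MXD, Per3 went from 0.17 at 1W to −0.81 at 2W, a difference of −0.98, and Per2 from 0.16 to −0.42, a difference of −0.58. Both probes were dim, and with the normexp background correction Per3 went from 0.06 to −0.24 and Per2 from 0.11 to −0.21. Arntl in MXD went from −0.21 at 1W to 0.13 at 2W, a difference of 0.33, and to −0.16 at 3W, a difference of −0.28. In N-CE, the members that moved from above VC at 1W to below it at 2W were Dbp (difference −0.53), Per1 (−0.46), Nr1d2 (−0.46) and Tef (−0.35). The arrays of N-CE 2W correlated with r of −0.16 across well measured genes, which limits these differences. From 1W to 3W of N-CE, Nr1d2 differed by −0.54 and Clock by −0.34. None of the N-CE values was called in either week, and of the MXD values none was called, as Per3 missed the P limit on 1 array.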

How the results depend on the processing

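All 5 called member folds kept their call with normexp and loess, with the matrix values and on each array alone. These alternatives could hardly end a call. The matrix values equalled the main values for the members, and a call already required P under 0.01 on both arrays. The normexp setting changed the fold but kept the software's P. Averaging all probes of a gene, with P under 0.01 required of every probe on both arrays, left 2 members called in MXD 2W, Dbp and Nr1d2. The averages of Tef (−0.82) and Nr1d1 (−0.63) were still past the fold limit. Their calls ended on the P of their other probes. On single arrays, the members called numbered 1 to 2 in MXD 1W, 4 to 6 in MXD 2W and 0 to 1 in N-CE 2W, where Nr1d1 passed on the array with N-CE in Cy3. Without the P limit, 3 members passed the fold in MXD 1W (also Npas2 and Nr1d1), 7 in MXD 2W (also Clock, Per2 and Per3) and 2 in N-CE 3W (Npas2 and Per3). With the VC readings of the other treatment's arrays of the week as the reference and no P, chosen after seeing the data, 5 members passed in MXD 1W, 7 in MXD 2W, 2 in MXD 3W, 1 in N-CE 1W, 3 in N-CE 2W and 3 in N-CE 3W, among them Npas2, which was not above background. No called fold changed sign. Symmetric fold limits and the filter on dim probes changed no count. In the fits over the weeks no alternative called a member. No paired analysis was possible by replicate number because the labels give none that pair pools across groups, but each ratio set a treated pool against VC of the same week and the difference of MXD and N-CE was taken within weeks. The dim signals of Npas2, Per2 and Per3 and the dye orientation of Nr1d1 and Clock limit what these arrays resolve. The hour of sampling was not given, and a difference in it between pools could not be checked for any member.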
